A study of Mus musculus and Rattus norvegicus with 60 samples.

Results

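The data on 8 genes of the parathyroid hormone-related protein (PTHrP) brake on growth plate maturation are reported here: Pthlh, which encodes PTHrP, its receptor gene Pth1r, the deacetylase genes Hdac4 and Hdac5, the kinase gene Sik3, and the Mef2 transcription factor genes Mef2a, Mef2c and Mef2d. They were chosen by name from the pathway and matched to the tables by symbol, ignoring case. All 8 were found among the 20155 mouse genes and 7 among the 15163 rat genes, each in a single row, and rat Mef2c was not analysed here. The libraries came from untreated male C57BL/6 mice and Sprague Dawley rats, without any engineered allele. Growth plate cartilage was cut by laser capture from the proximal tibia, at the age of 1 week or 4 weeks, and from forelimb proximal phalanges at 1 week. Proliferative (PZ) and hypertrophic (HZ) zones were collected separately. Each of the 6 groups per species held 5 libraries from 5 animals, except mouse 1-week phalanx PZ with 4. The tibia is a long, fast-growing hindlimb bone and the phalanx a short forelimb bone, so effects of the bone and of the limb cannot be told apart. A captured zone is a strip of many cells. In such bulk samples fewer cells of a type and less RNA per cell cannot be told apart.

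In the growth plate, PTHrP is made by cells near the end of the bone and acts through Pth1r, a G protein-coupled receptor whose main branch raises cyclic AMP and activates protein kinase A. In mice this signal keeps the class IIa deacetylase Hdac4, and with it Hdac5, in the nucleus, where they bind and silence Mef2 and Runx2, factors that switch on hypertrophy genes such as Col10a1. Sik3 phosphorylates class IIa deacetylases and keeps them in the cytoplasm, and protein kinase A inhibits it. Hypertrophying chondrocytes release Ihh, which in turn sustains Pthlh. Location in the cell and phosphorylation are not read by RNA, so the values below concern transcript levels alone.

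The 8 mouse genes lie apart from one another. On GRCm38 (GENCODE M21) Pthlh spans chr6:147252101-147264183, Hdac4 chr1:91928779-92195699, Hdac5 chr11:102194432-102230166 and Mef2a chr7:67231163-67372858, all on the minus strand. Mef2c spans chr13:83504034-83667080 and Mef2d chr3:88142372-88172086 on the plus strand. Pth1r at chr9:110722085-110747145 (minus strand) and Sik3 at chr9:46012820-46224194 (plus strand) share a chromosome. Annotated exons of Pth1r overlap Myl3, those of Hdac4 overlap Gm26720, those of Mef2a overlap Lysmd4 and those of Mef2d overlap 1700113A16Rik, each on the opposite strand, and the microRNA gene Mir8101 lies within Hdac5 exons. Whether reads were counted by strand is not given in the sources used here, so reads of these overlapping pairs could be mixed.

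Promoters are shown for 4 genes: Hdac5 and Mef2d, which rose together in 1-week tibia HZ, and their relatives Hdac4 and Mef2a, which followed other patterns. RefSeq windows (GRCm38.p6) from 250 bases before to 50 bases after the first base of the transcript were searched, and the first 280 bases are printed 5′ to 3′ on the gene's strand. Capitals mark a MEF2-type site (CTANNNNTAG, which reads alike on both strands), a cyclic AMP response element core (TGACG or its reverse CGTCA) or a GC box (GGGCGG or its reverse CCGCCC). No marked motif overlaps another in these 4 windows. The windows are chr11:102230143-102230422 (minus strand) for Hdac5, chr3:88142122-88142401 (plus strand) for Mef2d, chr1:92180312-92180591 (minus strand) for Hdac4 and chr7:67372829-67373108 (minus strand) for Mef2a.
Hdac5: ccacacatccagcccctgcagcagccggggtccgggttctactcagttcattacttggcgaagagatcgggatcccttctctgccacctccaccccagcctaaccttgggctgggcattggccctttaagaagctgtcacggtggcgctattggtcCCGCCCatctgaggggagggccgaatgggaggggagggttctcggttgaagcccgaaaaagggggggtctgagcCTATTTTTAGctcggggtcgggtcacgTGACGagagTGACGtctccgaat
Mef2d: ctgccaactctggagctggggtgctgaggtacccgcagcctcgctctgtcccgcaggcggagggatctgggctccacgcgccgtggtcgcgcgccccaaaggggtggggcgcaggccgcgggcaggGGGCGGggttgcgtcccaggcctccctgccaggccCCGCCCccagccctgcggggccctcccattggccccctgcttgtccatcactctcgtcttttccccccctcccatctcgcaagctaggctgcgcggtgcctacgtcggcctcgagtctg
Hdac4: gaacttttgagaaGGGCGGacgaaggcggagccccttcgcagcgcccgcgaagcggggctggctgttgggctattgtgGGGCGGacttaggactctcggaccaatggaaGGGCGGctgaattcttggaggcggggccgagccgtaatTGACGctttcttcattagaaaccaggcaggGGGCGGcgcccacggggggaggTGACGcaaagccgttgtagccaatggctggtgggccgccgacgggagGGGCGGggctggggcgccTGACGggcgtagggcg
Mef2a: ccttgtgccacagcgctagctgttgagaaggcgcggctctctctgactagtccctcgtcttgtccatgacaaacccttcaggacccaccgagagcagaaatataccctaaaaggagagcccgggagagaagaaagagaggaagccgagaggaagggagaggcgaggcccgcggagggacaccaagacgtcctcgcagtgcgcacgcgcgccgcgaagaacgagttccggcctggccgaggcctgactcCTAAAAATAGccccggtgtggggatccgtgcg

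A MEF2-type site was found 20 bases before the start of Hdac5 (CTATTTTTAG) and across the start of Mef2a (CTAAAAATAG, first base 2 bases before it), and in none of the windows of the other 6 genes. It occurs in 3.69% of the 32851 mouse promoters of the same length. Hdac4 and Sik3 each carried 3 TGACG cores and Hdac5 carried 2, against 20.8% of all promoters with at least 1. Hdac4 also held 5 GC boxes, Pthlh 4, Mef2d 2 and Hdac5 1, a motif present in 35.7% of promoters. Of 3 Pth1r windows, window 3 held 4 GC boxes, window 2 held 1, and window 1 held 1 CGTCA core. For Mef2c, window 2 of 3 held 1 GC box. The Hdac4 window starts inside the annotated gene span, since the RefSeq start differs from the outermost GENCODE start. These matches describe letters in a window and say nothing of binding.

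The deposited values are log2 of normalized read counts plus 1. Levels below are normalized counts, and differences are limma estimates on the log2(value + 1) scale with their standard errors (SE). Adjusted p-values are Benjamini-Hochberg values over all genes tested (15213 in mouse, 11760 in rat), and a gene is called when its adjusted p is below 0.05. Reads in genes numbered 19725320 to 41881803 per mouse library and 7817389 to 29033059 per rat library. In mouse, the ribosomal precursor Rn45s took 31.0 to 80.8% of them. The 1-week tibia HZ libraries were the shallowest group in both species, with 5246147 to 10409209 reads outside Rn45s in mouse and 7817389 to 11067652 reads in rat, and the part of depth in results on that group was not tested. The PZ markers Gdf10, Prelp and Bmp7 were lower in HZ, and the HZ markers Col10a1, Bmp2 and Mmp13 (Bmp2 and Mmp13 in rat) were higher, in every zone comparison. On the log2 ratio of summed PZ to HZ markers, 3 libraries stood apart. Mouse 1-week phalanx HZ replicate 5 was at -1.83 against -7.41 to -6.46 in the others, rat 4-week tibia HZ replicate 3 at 0.47 against -5.39 to -3.80, and rat 1-week phalanx PZ replicate 3 at -1.48 against 0.37 to 2.02.

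HZ captures also held more RNA of vessels and macrophages than PZ captures. All 8 endothelial markers were higher in HZ in all 6 zone comparisons, with sums of 82.1 to 761.2 in mouse 1-week tibia PZ against 3536 to 16888 in HZ, and 193.4 to 492.4 against 1964 to 11149 in rat. Of the macrophage and osteoclast markers, 7, 7 and 5 of 8 were higher in HZ in mouse 1-week tibia, 4-week tibia and phalanx, and 5, 5 and 7 of 7 in rat. In 1-week tibia their sums were 392.3 to 3927 in PZ and 14362 to 23956 in HZ in mouse, and 304.8 to 499.4 and 1455 to 7191 in rat, where Acp5 was at 0 in PZ. Osteoblast and osteocyte markers were higher in HZ for 3, 2 and 3 of 9 genes in mouse and 3, 4 and 4 of 6 in rat. Beside these counts, 44.2, 35.3 and 35.0% of all mouse genes were called in either direction, and 41.5, 21.3 and 40.6% in rat. In rat 1-week tibia the neutrophil markers Mpo, S100a8, S100a9, Ngp and Camp were also called higher in HZ, S100a8 by 3.97. None of them was called in the other rat zone comparisons. In mouse S100a8 in 4-week tibia was the only neutrophil marker called between zones. Erythroid means were higher in rat 1-week tibia HZ too, as for Slc4a1 at 3989.5 against 293.2 in PZ. Of the perichondrium and tendon markers in rat 4-week tibia, Postn and Col3a1 were called higher in HZ (3.34 and 2.47) and Fmod lower (-1.95). The part of these cells in the zone differences below was not tested.

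With age and bone the captures differed as well. Chondrocyte markers were lower in phalanx HZ than in tibia HZ for 8 of 8 genes in both species, with sums of 116641 to 1011893 against 739227 to 1715083 in mouse and 1182049 to 2554886 against 2366710 to 4749243 in rat. Macrophage and osteoclast markers were higher there for 3 of 8 genes in mouse and 6 of 7 in rat. Of all genes, 19.0% in mouse and 36.0% in rat were called in this HZ comparison. Of the PZ markers, Bmp7 in mouse (1.56) and Gdf10 in rat (2.45) were called there, both higher in phalanx HZ. In rat tibia HZ, Gdf10 and Prelp were called higher at 4 weeks than at 1 week (2.005 and 1.44) and Bmp7 lower (-1.93). No PZ marker was called with age in mouse tibia HZ. In 4-week tibia PZ the sum of the HZ markers was 32674 to 75194 against 2570 to 9425 at 1 week in mouse, where Col10a1 was called, and 1196 to 20868 against 851.1 to 1794 in rat, where Bmp2 was called. In rat 4-week tibia PZ, all 6 erythroid and all 5 neutrophil markers tested were also higher than at 1 week, as were 4 of 7 macrophage and osteoclast markers. The share of all genes called there was 16.1%. In 4-week tibia HZ, B lymphocyte markers were higher than at 1 week for 7 of 10 genes in mouse and 5 of 7 in rat (15.6% and 13.7% of all genes were called). The neutrophil markers Elane, S100a8, S100a9, Ltf and Ngp were also higher in mouse 4-week tibia HZ than at 1 week. Mpo and Camp were not called there, nor was any neutrophil marker in rat tibia HZ with age. Phalanx PZ differed from tibia PZ too. In mouse 5 of 8 endothelial markers were higher there (5.09% of all genes were called), with summed levels of 761.2 to 1512 against 82.1 to 761.2 and Kdr, Emcn and Tie1 higher by 1.91, 2.94 and 2.97 on the log2 scale. Of the perichondrium and tendon markers Postn and Col3a1 were called higher (3.00 and 1.67). The others were not called, with Tnmd and Mkx at 1.95 and 1.16 and Scx, Thbs4 and Fmod at -0.54, -1.74 and -0.17. In the same comparison 3 of 7 muscle markers were lower, with sums of 170.3 to 209.9 against 242.3 to 5672. In rat phalanx PZ, 10.4% of all genes were called, and so were all 6 erythroid, 3 of 5 neutrophil, 4 of 7 macrophage and osteoclast, 4 of 6 osteoblast and osteocyte and 2 of 8 endothelial markers, all higher. The rat HZ marker sum was 7075 to 55983 there against 851.1 to 1794 in tibia PZ. No perichondrium or tendon marker was called in rat phalanx PZ. In rat 4-week tibia PZ, Postn and Col3a1 were called lower than at 1 week (-4.34 and -3.32). In rat phalanx HZ, Postn, Col3a1 and Thbs4 were called higher than in tibia HZ (3.03, 2.28 and 2.81) and Scx lower (-2.18). In mouse phalanx HZ Scx alone was called, higher by 3.14. The part of these markers in the age and bone differences of the members was not tested.

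Between the zones, most of the 8 genes differed. In mouse 1-week tibia 5 of 8 were called, all higher in HZ: Pth1r, Hdac5, Mef2a, Mef2c and Mef2d, where 44.2% of all genes tested were called. In mouse 4-week tibia 5 of 8 were called, with Hdac5, Mef2a and Mef2d higher in HZ and Pthlh and Hdac4 lower (35.3% of all genes). In mouse 1-week phalanx 6 of 8 were called, with Mef2a, Mef2c and Mef2d higher and Pthlh, Hdac4 and Sik3 lower (35.0% of all genes). In rat 1-week tibia 5 of 7 were called, with Pth1r, Hdac5, Mef2a and Mef2d higher and Pthlh lower (41.5% of all genes). In rat 4-week tibia 3 of 7 were called, Hdac5, Mef2a and Mef2d, all higher in HZ (21.3% of all genes). In rat 1-week phalanx 6 of 7 were called, with Pth1r, Hdac5, Mef2a and Mef2d higher and Pthlh and Hdac4 lower (40.6% of all genes). Pthlh passed the low-value filter (10 normalized counts in 5 libraries) through PZ libraries alone, so it had to differ between zones. Its place in the counts and medians of this paragraph is a description. Mef2a and Mef2d were called higher in HZ in all 6 zone comparisons, and Hdac5 in 5. The median log2 difference of the members was 1.23 in mouse 1-week tibia, -0.01 in 4-week tibia and 0.19 in phalanx, against -0.15, -0.029 and -0.043 over all genes. In rat the medians were 1.01, 0.28 and 0.97, against 0.013, 0.012 and 0.085.

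**Figure D1:**
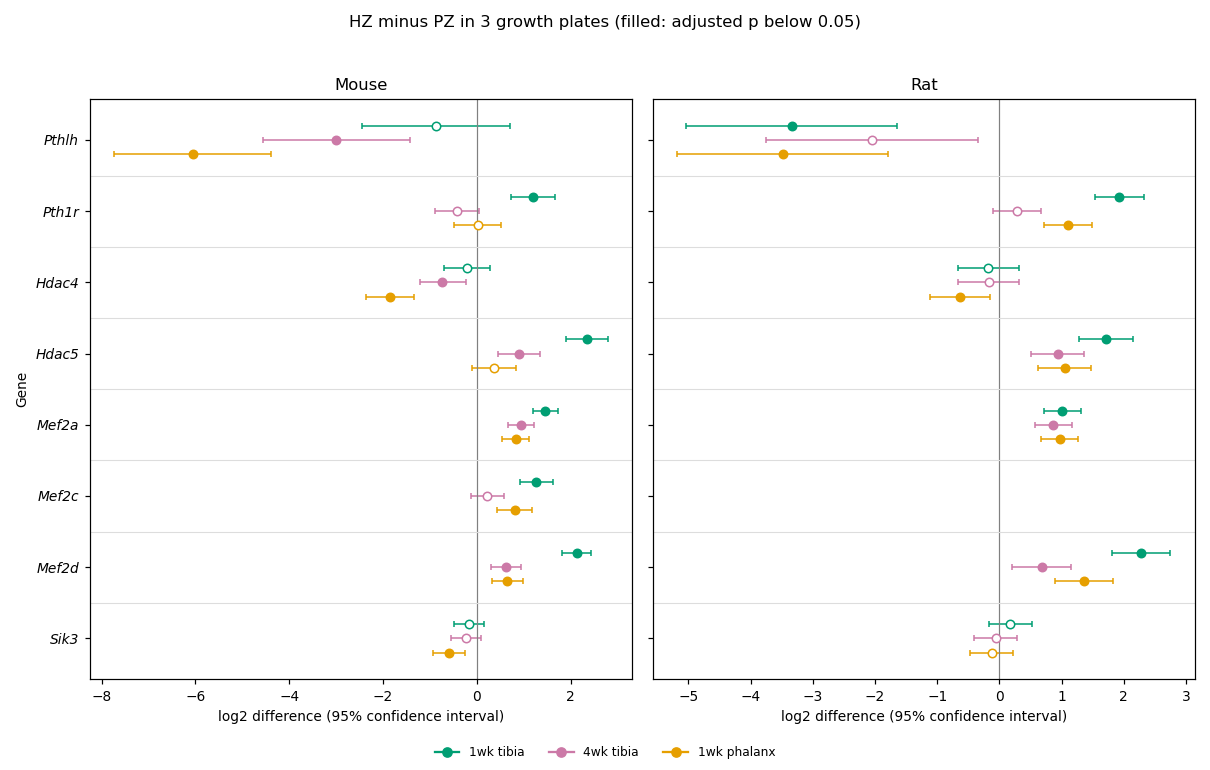
Log2 difference of HZ minus PZ for each gene in mouse (left) and rat (right), with 95% confidence intervals, in 1-week tibia, 4-week tibia and 1-week phalanx, with a separate scale on each side. Filled points have an adjusted p below 0.05. Hdac5 and Mef2d reached 2.35 and 2.13 in mouse 1-week tibia, and Hdac4 lay at -1.86 in mouse phalanx.

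The age change in the tibia and the difference between phalanx and tibia at 1 week were read in each zone. In mouse PZ 4 of 8 genes were higher at 4 weeks: Pthlh, Pth1r, Mef2a and Mef2c (8.57% of all genes called). In mouse HZ 4 of 8 were lower at 4 weeks: Hdac4, Hdac5, Mef2d and Sik3 (15.6% of all genes). In rat PZ 3 of 7 were called with age, with Pth1r and Mef2a higher and Hdac4 lower (16.1% of all genes). In rat HZ 5 of 7 were called with age, with Mef2a higher and Hdac4, Hdac5, Mef2d and Sik3 lower (13.7% of all genes). Phalanx against tibia PZ gave 4 of 8 higher in mouse, Pthlh, Hdac4, Hdac5 and Mef2a (5.09% of all genes), and 2 of 7 higher in rat, Hdac4 and Mef2a (10.4% of all genes). Mouse Pthlh passed the low-value filter only with its phalanx PZ libraries, so its place in this count is a description. Phalanx against tibia HZ gave 4 of 8 lower in mouse, Pth1r, Hdac5, Mef2c and Mef2d (19.0% of all genes). The same comparison in rat gave 5 of 7, with Pth1r, Hdac5, Mef2d and Sik3 lower and Mef2a higher (36.0% of all genes). Rat Hdac4 was thus lower with age in both zones, and rat Mef2a was higher in both zones with age and in phalanx. Age and bone comparisons use the same 1-week tibia libraries, so a gene that stands out in that group differs in both.

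The median log2 difference of the members with age was 0.47 in mouse PZ, -0.41 in mouse HZ, -0.35 in rat PZ and -0.62 in rat HZ, against 0.058, 0.165, 0.04 and 0.091 over all genes. For phalanx against tibia it was 0.32 in mouse PZ, -0.60 in mouse HZ, -0.08 in rat PZ and -0.48 in rat HZ, against 0.012, 0.135, 0.027 and 0.127. The difference between the zones was tested directly as an interaction. The age change was more negative in HZ than in PZ for Pth1r, Hdac5, Mef2c and Mef2d in mouse, 4 of 8 where 2.45% of all genes were called, and for Pth1r and Mef2d in rat, 2 of 7 where 4.35% were called. The bone difference was more negative in HZ than in PZ for Pth1r, Hdac4, Hdac5, Mef2a and Mef2d in mouse, 5 of the 7 members other than Pthlh, where 10.6% of all genes were called. Mouse Pthlh was at 0 in every 1-week HZ library of both bones, so its interaction is the PZ difference with its sign turned and is not counted. In rat the bone interaction was called for Pth1r alone, 1 of 7 where 15.9% of all genes were called.

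**Figure D2:**
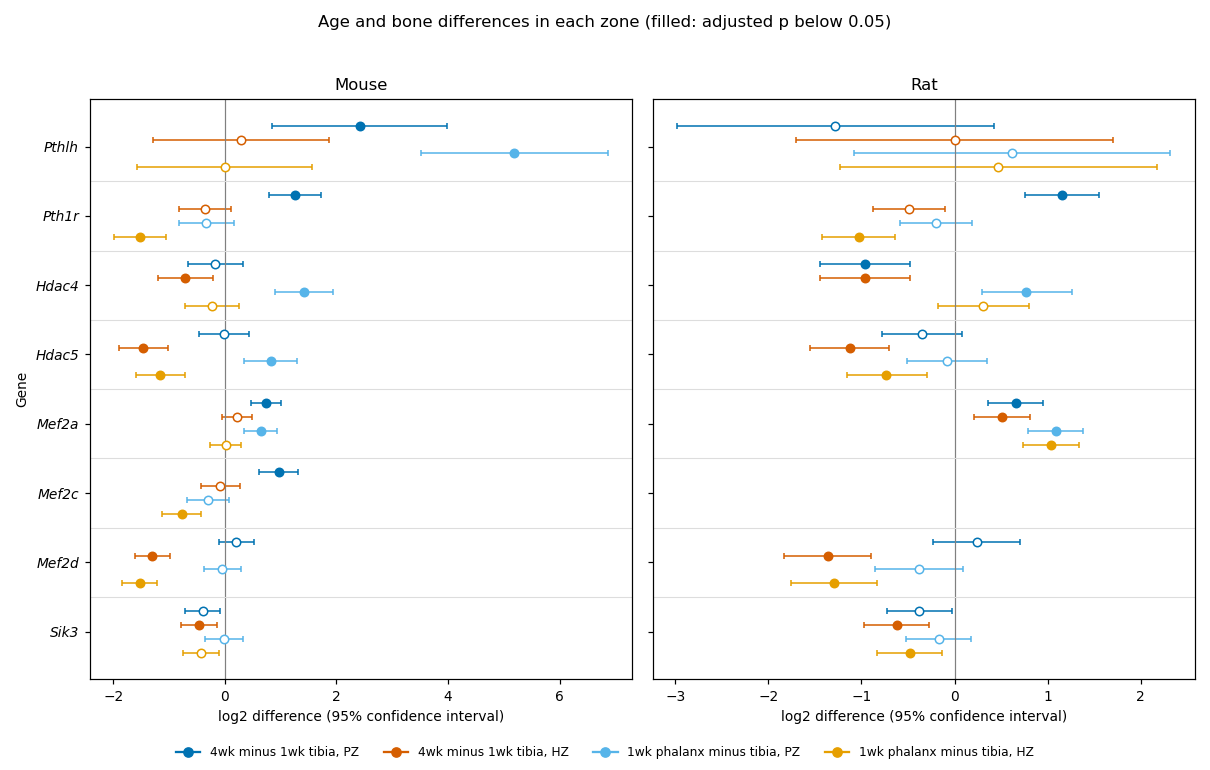
Log2 differences with 95% confidence intervals for age (4-week minus 1-week tibia) and bone (1-week phalanx minus tibia) in PZ and HZ, for mouse (left) and rat (right), with a separate scale on each side. Filled points have an adjusted p below 0.05. For Mef2d the HZ differences lay between -1.52 and -1.29 in both species, and none of its PZ differences was called.

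Pthlh transcripts were scarce and were found almost only in PZ. The gene passed the low-value filter through those libraries alone, so it had to differ between zones, and its zone calls are given as a description. In mouse phalanx PZ the normalized counts were 145.2, 45.1, 65.2 and 43.1, and all 5 phalanx HZ libraries were at 0. In mouse 4-week tibia PZ they were 13.2, 16.0, 3.3, 13.2 and 5.1, against 1.7 in 1 HZ library and 0 in the other 4. In mouse 1-week tibia PZ replicate 1 stood at 19.5 and the other 4 at 0, and all HZ libraries were at 0. Phalanx PZ therefore lay above every other mouse library. Recovered reads, taken from the steps between the normalized values, give 287 for phalanx PZ and 0 for phalanx HZ, which is at least 144.8-fold higher in reads over summed depth when the HZ group is set to 3 reads in all (96.5-fold without PZ replicate 1). Mouse 4-week tibia had 84 PZ reads and 2 HZ reads, a ratio of 35.2 (95% counting interval 9.44 to 295.3), and at least 19.4-fold without HZ replicate 1, which held both HZ reads. The 18 reads of mouse 1-week tibia PZ, all from replicate 1, against 0 in HZ give at least 2.81-fold, and no zone difference was called by limma (adjusted p = 0.38). These intervals and floors cover counting error only, and reads without molecular identifiers are not independent molecules.

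In rat the ligand was seen in PZ of every bone. Rat 1-week tibia PZ read 62.4, 0, 15.0, 14.6 and 5.6, 4-week tibia PZ 5.5, 11.1, 0, 1.1 and 6.2, and phalanx PZ 19.4, 11.0, 13.9, 31.1 and 6.8. The HZ libraries were at 0 except 1.4 and 1.2 in 2 phalanx libraries. The 92 reads of 1-week tibia PZ and the 35 of 4-week tibia PZ against 0 in HZ give at least 20.1-fold and at least 10.8-fold. Replicate 1 held 68.5% of the 1-week tibia PZ reads, and without it the first bound was 8.18-fold. In phalanx 70 against 4 reads give a ratio of 34.2 (12.8 to 128.8), and 55.2 or 53.3 without HZ replicate 3 or 5. By limma the zone difference was called in rat 1-week tibia (adjusted p = 0.0016) and phalanx (adjusted p = 0.0011) but not in 4-week tibia (adjusted p = 0.077).

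Between bones, mouse phalanx PZ exceeded mouse 1-week tibia PZ by 5.19 ± 0.82 (log2, SE; adjusted p = 8.2e-05), without overlap. Mouse Pthlh passed the low-value filter only with these phalanx PZ libraries, so this difference is given as a description. The ratio of group means was 19.2, and that of pooled reads over summed depth 22.1 (95% counting interval 13.7 to 37.8), or 14.7 without phalanx PZ replicate 1. Without tibia PZ replicate 1, which held all 18 tibia reads, phalanx PZ was at least 109.5-fold higher. In rat the same log2 difference was 0.62 ± 0.84 (adjusted p = 0.73), and the groups overlapped widely. By counts the sign was the other way, with 1-week tibia PZ at 1.19 times phalanx PZ by group means and 1.17 times by pooled reads (0.845 to 1.61). That direction rested on tibia PZ replicate 1, without which tibia was at 0.537 times phalanx by group means and 0.476 times by pooled reads. Whether the species differed was not tested, since each species was fitted alone. With age in PZ the mouse difference of 2.42 ± 0.78 was called (adjusted p = 0.045) but was lost in 10 of 18 alternatives. Without any 1 of 1-week PZ replicates 2 to 5 or 4-week PZ replicates 1, 2, 4 and 5 it was 2.20 to 2.59 (adjusted p = 0.058 to 0.12). In rat the age difference was -1.28 ± 0.84 (adjusted p = 0.33).

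**Figure D3:**
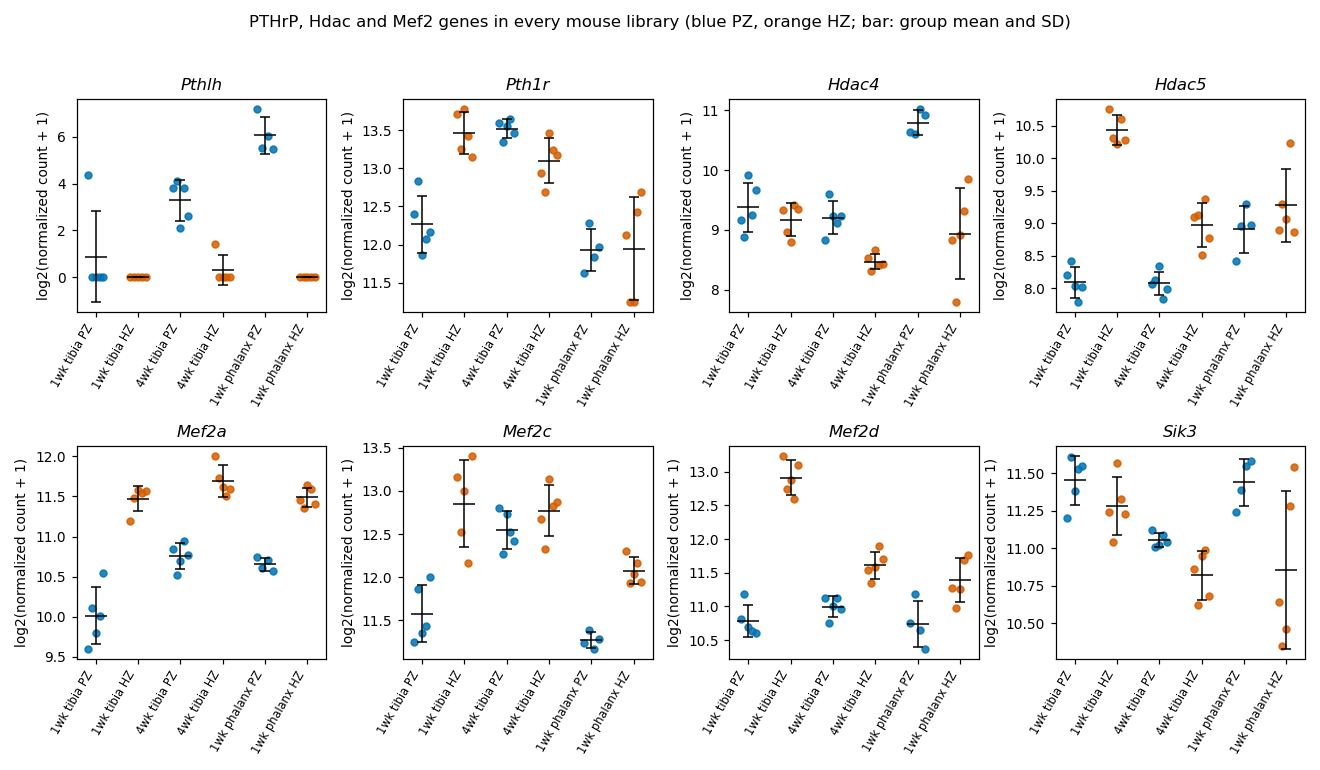
Log2(normalized count + 1) of the 8 genes in each of the 29 mouse libraries, by group, with blue points for PZ, orange for HZ, and a bar for the group mean and SD. Pthlh was highest in phalanx PZ, Hdac4 in phalanx PZ, and Hdac5 and Mef2d in 1-week tibia HZ; each panel has its own scale.

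Pth1r, the receptor gene, had the highest level per kilobase of exon of the 8 in all 6 mouse groups, with 3918 normalized counts per kilobase in 1-week tibia HZ, against 1307 for Mef2d and 37.0 for Hdac4 in the same group. In mouse 1-week tibia it read 5401, 7348, 3709, 4300 and 4578 in PZ and 13429, 9711, 14067, 11005 and 9093 in HZ. In mouse 4-week tibia it read 12392, 10460, 12054, 12893 and 11263 in PZ and 7855, 6600, 11285, 9652 and 9279 in HZ. The 1-week groups did not overlap, with HZ above PZ, whereas at 4 weeks the ranges overlapped and PZ had the higher mean. The zone difference was 1.20 ± 0.23 at 1 week (adjusted p = 0.00011) and -0.42 ± 0.23 at 4 weeks (adjusted p = 0.16). PZ rose with age by 1.26 ± 0.23 (adjusted p = 0.00056), and HZ differed by -0.36 ± 0.23 (adjusted p = 0.30). The interaction of -1.62 ± 0.32 was called (adjusted p = 0.0047).

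Rat Pth1r showed these steps too. In rat 1-week tibia it read 3195, 2721, 1908, 3356 and 1952 in PZ and 7987, 10907, 13104, 8054 and 9437 in HZ. In rat 4-week tibia it read 3979, 7426, 5379, 5549 and 6756 in PZ and 4615, 6665, 7442, 6750 and 10319 in HZ. HZ exceeded PZ without overlap at 1 week, by 1.93 ± 0.19 (adjusted p = 7.7e-10), and the zones overlapped at 4 weeks, with 0.28 ± 0.19 (adjusted p = 0.33). PZ rose with age by 1.16 ± 0.19 without overlap (adjusted p = 4.6e-05), HZ differed by -0.49 ± 0.19 (adjusted p = 0.083), and the interaction was -1.64 ± 0.27 (adjusted p = 0.00024).

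In the phalanx the receptor was lower than in tibia HZ in both species. Mouse phalanx read 3148, 4967, 3676 and 4002 in PZ and 4490, 2419, 2428, 5519 and 6585 in HZ, with no zone difference called (0.02 ± 0.24, 95% interval -0.48 to 0.52). Rat phalanx read 1881, 2619, 2305, 2227 and 2157 in PZ and 4455, 5964, 3695, 5464 and 4573 in HZ, and HZ was above PZ without overlap by 1.10 ± 0.19 (adjusted p = 2.8e-05). Against tibia, phalanx HZ differed by -1.52 ± 0.23 in mouse (adjusted p = 2.6e-05) and -1.03 ± 0.19 in rat (adjusted p = 9e-05), and in both species every phalanx HZ library lay below every tibia HZ library. The PZ differences were -0.34 ± 0.24 and -0.20 ± 0.19, neither called. The interaction was -1.18 ± 0.33 in mouse (adjusted p = 0.022) and -0.83 ± 0.27 in rat (adjusted p = 0.033). The mouse call was lost in 3 of 29 alternatives, at -1.06 (adjusted p = 0.054) without phalanx PZ replicate 2. The rat call was lost in 11 of 30, at -0.82 to -0.72 (adjusted p = 0.050 to 0.073) without phalanx HZ replicate 1, 3 or 5, phalanx PZ replicate 2 or 3, tibia HZ replicate 2 or 3, or tibia PZ replicate 3 or 5.

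**Figure D4:**
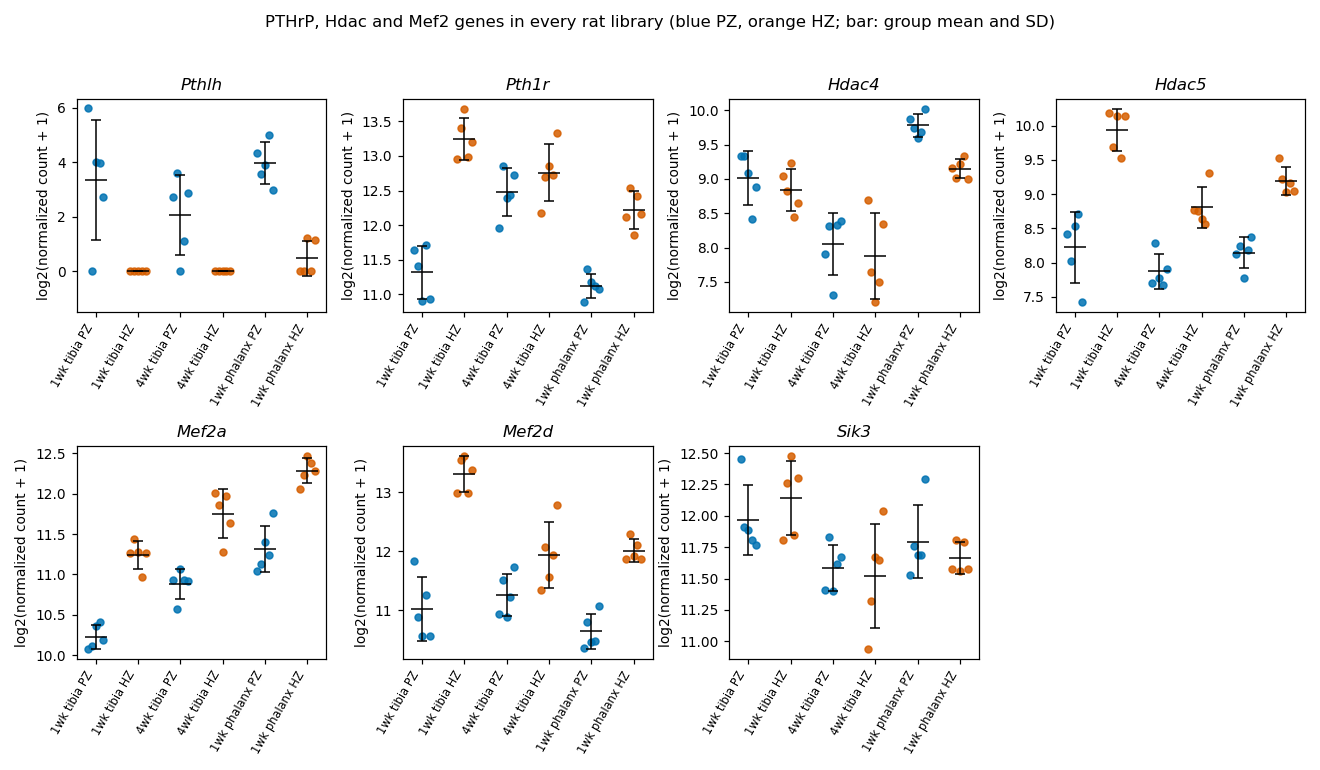
Log2(normalized count + 1) of the 7 genes in each of the 30 rat libraries, by group, with blue points for PZ, orange for HZ, and a bar for the group mean and SD. Mef2d in 1-week tibia HZ lay above all other rat libraries and Hdac4 in 1-week phalanx PZ did so too; each panel has its own scale.

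Hdac4, the deacetylase that mouse genetics ties most closely to hypertrophy, was highest in phalanx PZ in both species. Mouse phalanx read 1587, 1554, 2074 and 1942 in PZ against 455.2, 220.9, 481.7, 633.5 and 919.7 in HZ. Mouse 1-week tibia read 573.8, 472.7, 959.0, 606.5 and 809.0 in PZ and 648.0, 500.0, 445.6, 680.3 and 651.8 in HZ. Every phalanx PZ library was above every other mouse library, at 2.62 times the mean of the next group, while the 1-week tibia zones overlapped. Phalanx HZ differed from phalanx PZ by -1.86 ± 0.26 (adjusted p = 8.6e-07), and phalanx PZ exceeded tibia PZ by 1.42 ± 0.26 (adjusted p = 0.00043). The bone difference in HZ was -0.24 ± 0.24 (adjusted p = 0.53), and the interaction was -1.66 ± 0.35 (adjusted p = 0.0019).

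Rat Hdac4 read 935.5, 859.2, 777.6, 821.0 and 1038 in phalanx PZ and 572.8, 517.0, 597.2, 642.3 and 511.4 in phalanx HZ. Rat 1-week tibia read 645.0, 648.8, 542.8, 339.6 and 473.6 in PZ and 523.6, 452.7, 601.0, 347.4 and 399.9 in HZ. Here too phalanx PZ lay above all other libraries, at 1.56 times the next group mean, and the tibia zones overlapped. The zone difference in phalanx was -0.64 ± 0.24 (adjusted p = 0.031, lost in 4 of 20 alternatives), and the excess over tibia PZ was 0.77 ± 0.24 (adjusted p = 0.032, lost in 6 of 20). The first was -0.62 to -0.58 (adjusted p = 0.058 to 0.065) without HZ replicate 2 or 5 or PZ replicate 1 or 5, and the second 0.62 to 0.79 (adjusted p = 0.051 to 0.12) without phalanx replicate 1 or 5 or tibia replicate 3, 4 or 5.

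With age Hdac4 decreased in rat tibia in both zones. Rat 4-week tibia read 238.1, 317.6, 158.1, 320.7 and 334.3 in PZ and 414.4, 200.3, 145.9, 179.6 and 322.3 in HZ. All 4-week PZ libraries were below all 1-week PZ libraries, and in HZ the ages overlapped through replicate 1 at 414.4. The gene fell by 0.96 ± 0.24 in PZ (adjusted p = 0.0042) and by 0.96 ± 0.24 in HZ (adjusted p = 0.0059). In mouse 4-week tibia PZ read 454.9, 776.4, 599.7, 555.4 and 599.0 and HZ read 370.8, 318.4, 402.5, 338.0 and 344.9, which did not overlap. The zone difference there was -0.73 ± 0.24 (adjusted p = 0.016), and -0.63 without PZ replicate 2 (adjusted p = 0.056). The age difference in mouse HZ was -0.71 ± 0.24 without overlap (adjusted p = 0.042), but it was lost in 15 of 19 alternatives. Leaving out any 1 library but 1-week replicates 2 and 3 gave -0.75 to -0.65 (adjusted p = 0.051 to 0.085). In PZ the age difference was -0.17 ± 0.24 (adjusted p = 0.78).

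Hdac5, a second class IIa deacetylase, was highest in 1-week tibia HZ in both species. Mouse 1-week tibia read 292.9, 341.9, 259.6, 218.0 and 256.5 in PZ and 1731, 1266, 1192, 1550 and 1248 in HZ. Mouse 4-week tibia read 265.0, 279.8, 323.4, 227.4 and 252.8 in PZ and 544.3, 558.8, 362.7, 662.8 and 435.8 in HZ. HZ was above PZ without overlap at both ages, by 2.35 ± 0.22 at 1 week (adjusted p = 1.6e-10) and 0.90 ± 0.22 at 4 weeks (adjusted p = 0.0014). HZ dropped by 1.46 ± 0.22 between the ages (adjusted p = 1.8e-05) while PZ differed by -0.02 ± 0.22 (95% interval -0.46 to 0.43), and the interaction was -1.44 ± 0.31 (adjusted p = 0.0062).

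Mouse phalanx read 341.5, 493.1, 622.8 and 504.4 Hdac5 counts in PZ and 478.1, 627.5, 538.0, 1211 and 467.8 in HZ, ranges that overlapped. The zone difference was 0.37 ± 0.23 (adjusted p = 0.23). Against tibia, the gene was lower in phalanx HZ (-1.16 ± 0.22, adjusted p = 0.00023) and higher in phalanx PZ (0.82 ± 0.23, adjusted p = 0.030). The latter was lost in 7 of 18 alternatives, at 0.70 to 0.81 (adjusted p = 0.057 to 0.14) without phalanx replicate 2, 4 or 5 or tibia replicate 3, 4 or 5. The interaction of -1.98 ± 0.32 was called (adjusted p = 7.8e-05).

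In rat, Hdac5 read 340.8, 259.5, 370.6, 416.8 and 169.7 in 1-week tibia PZ and 1156, 817.6, 1126, 731.9 and 1124 in HZ. It read 207.9, 311.4, 219.4, 202.4 and 239.0 in 4-week tibia PZ and 435.2, 430.3, 394.8, 378.3 and 632.2 in HZ. Phalanx values were 279.9, 300.6, 219.3, 290.7 and 331.8 in PZ and 738.7, 594.8, 520.1, 572.8 and 526.7 in HZ. In each bone and age all HZ libraries exceeded all PZ libraries, by 1.71 ± 0.21 (adjusted p = 6e-08), 0.93 ± 0.21 (adjusted p = 0.0014) and 1.05 ± 0.21 (adjusted p = 0.00016). HZ fell by 1.12 ± 0.21 with age (adjusted p = 0.00038), without overlap, and was lower in phalanx than in tibia (-0.73 ± 0.21, adjusted p = 0.0069). The PZ differences for age and bone were -0.35 ± 0.21 and -0.08 ± 0.21, neither called, and neither interaction was called (adjusted p = 0.15 and 0.13).

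The ratio of Hdac5 to Hdac4 was also taken within each library, where scaling between libraries cancels. It was chosen after the levels above were seen and comes from the same libraries, so it is given as a description, without a test. On the log2 scale Hdac5 minus Hdac4 was -1.29 ± 0.57, -1.13 ± 0.29 and -1.89 ± 0.25 (SD) in mouse 1-week tibia, 4-week tibia and phalanx PZ, and 1.26 ± 0.20, 0.50 ± 0.44 and 0.34 ± 0.94 in the matching HZ. In rat it was -0.79 ± 0.71, -0.18 ± 0.44 and -1.64 ± 0.14 in PZ and 1.09 ± 0.25, 0.93 ± 0.51 and 0.05 ± 0.24 in HZ. Per kilobase of exon, available for mouse, Hdac4 had the higher level in the 3 PZ groups (43.3, 37.8 and 113.1 against 31.2, 30.7 and 55.9 normalized counts) and Hdac5 in the 3 HZ groups (159.1, 58.4 and 75.7 against 37.0, 22.4 and 34.3). The shift of the mean to HZ was 2.55, 1.64 and 2.22 in mouse and 1.88, 1.11 and 1.69 in rat. The zones overlapped in rat 4-week tibia, where PZ reached 0.47 and HZ began at 0.07, and in none of the other 5 zone comparisons.

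**Figure D5:**
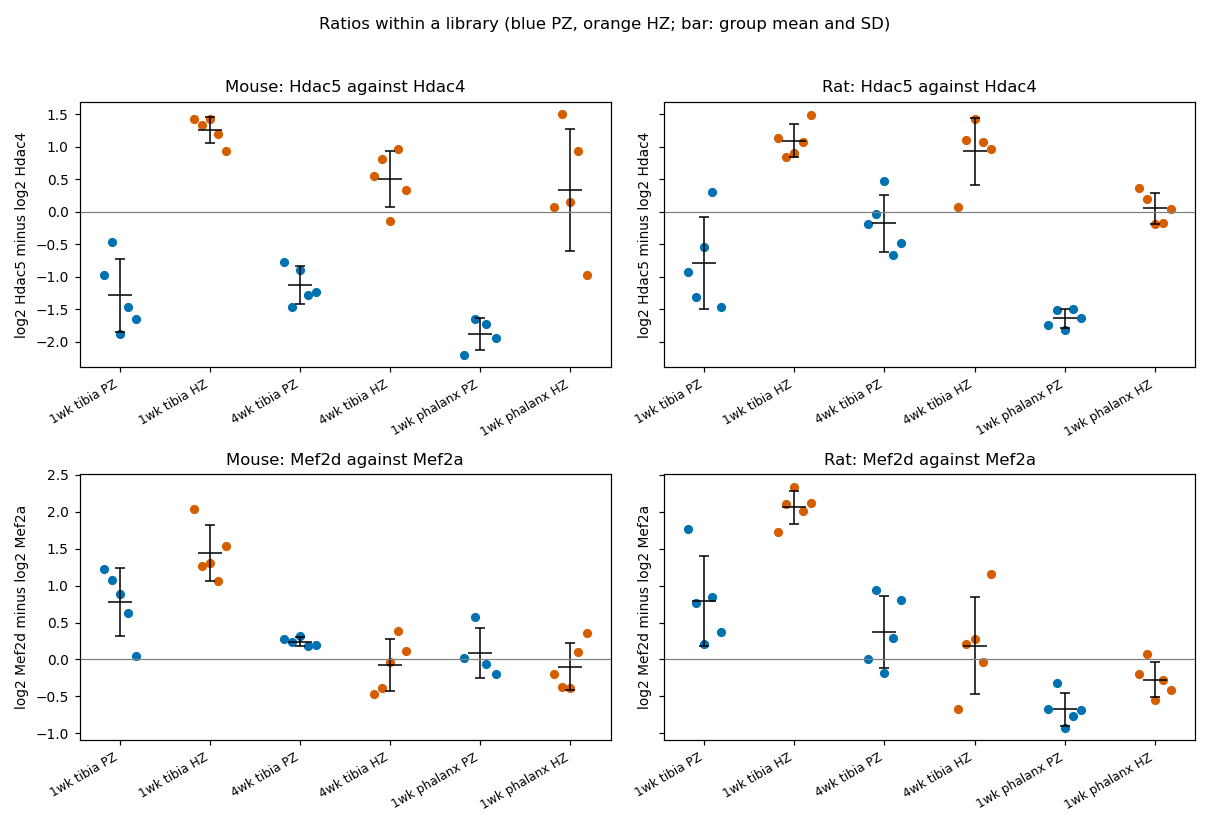
Log2 ratio of Hdac5 to Hdac4 (top) and of Mef2d to Mef2a (bottom) within each library, for mouse (left) and rat (right), with blue points for PZ, orange for HZ, and a bar for the group mean and SD. The mean Hdac5 to Hdac4 ratio was higher in HZ in every bone and age, and the mean Mef2d to Mef2a ratio was highest in 1-week tibia HZ, at 1.44 and 2.06.

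Mef2d, one of the Mef2 factors that class IIa deacetylases bind, was the member with the sharpest peak in 1-week tibia HZ. Mouse 1-week tibia read 1807, 2337, 1654, 1597 and 1548 in PZ and 9701, 6872, 7562, 6200 and 8777 in HZ. Mouse 4-week tibia read 2219, 1719, 2063, 2244 and 1987 in PZ and 2983, 2617, 3079, 3789 and 3319 in HZ. Mouse phalanx read 1735, 2331, 1609 and 1319 in PZ and 2469, 2019, 2448, 3313 and 3474 in HZ. The lowest 1-week tibia HZ library was above every other mouse library, and the group mean was 2.48 times the next. HZ exceeded PZ by 2.13 ± 0.16 in 1-week tibia (adjusted p = 5e-13), 0.62 ± 0.16 in 4-week tibia (adjusted p = 0.0018) and 0.65 ± 0.16 in phalanx (adjusted p = 0.0021). In HZ the gene fell by 1.30 ± 0.16 with age (adjusted p = 4.3e-07), and phalanx differed from tibia by -1.52 ± 0.16 (adjusted p = 9.2e-09). The PZ differences of 0.21 ± 0.16 and -0.05 ± 0.16 were not called, and both interactions were (-1.51 ± 0.22, adjusted p = 7.9e-05; -1.48 ± 0.23, adjusted p = 3.7e-05).

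Rat Mef2d read 3654, 1887, 1521, 2446 and 1509 in 1-week tibia PZ and 8124, 11872, 12588, 8103 and 10650 in HZ. It read 1962, 2907, 1903, 2383 and 3401 in 4-week tibia PZ and 2583, 4296, 3024, 3905 and 7082 in HZ. Phalanx values were 1325, 1799, 1417, 1423 and 2162 in PZ and 3713, 5026, 3866, 4391 and 3736 in HZ. As in mouse, 1-week tibia HZ was above every other library, at 2.46 times the next group mean. HZ exceeded PZ by 2.28 ± 0.23 (adjusted p = 1.6e-09) in 1-week tibia, without overlap, and by 1.37 ± 0.23 (adjusted p = 1.9e-05) in phalanx, also without overlap. The 0.68 ± 0.23 of 4-week tibia (adjusted p = 0.032) came from overlapping groups and was lost in 9 of 20 alternatives, at 0.47 to 0.68 (adjusted p = 0.054 to 0.14) without HZ replicate 2, 4 or 5 or PZ replicate 1, 3 or 4. HZ fell by 1.36 ± 0.23 with age (adjusted p = 0.00011), and phalanx HZ differed from tibia HZ by -1.29 ± 0.23 (adjusted p = 5.4e-05). The age interaction was -1.60 ± 0.33 (adjusted p = 0.0026), and the bone interaction was -0.91 ± 0.33 (adjusted p = 0.051).

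Mef2a, a close relative of Mef2d, rose in HZ everywhere without that peak. Mouse 1-week tibia read 773.8, 1101, 888.6, 1029 and 1500 in PZ and 2355, 2848, 3057, 2971 and 3037 in HZ. Mouse 4-week tibia read 1828, 1465, 1655, 1980 and 1745 in PZ and 4127, 3393, 3151, 2919 and 3080 in HZ. Mouse phalanx read 1708, 1558, 1673 and 1519 in PZ and 2816, 2604, 3183, 3073 and 2692 in HZ. The 3 HZ groups overlapped one another and stood above all PZ libraries. HZ exceeded PZ by 1.46 ± 0.13 (adjusted p = 1.1e-10), 0.94 ± 0.13 (adjusted p = 1e-06) and 0.83 ± 0.14 (adjusted p = 2.4e-05). PZ was higher at 4 weeks (0.74 ± 0.13, adjusted p = 0.00032) and in phalanx (0.64 ± 0.14, adjusted p = 0.0044) than in 1-week tibia, while HZ differed by 0.22 ± 0.13 and 0.01 ± 0.13, neither called. The bone interaction of -0.63 ± 0.20 (adjusted p = 0.033) was lost in 10 of 29 alternatives, at -0.61 to -0.53 (adjusted p = 0.058 to 0.073) without phalanx HZ replicate 2, phalanx PZ replicate 1 or 4, or tibia PZ replicate 1 or 3.

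Rat Mef2a read 1078, 1104, 1312, 1364 and 1169 in 1-week tibia PZ and 2453, 2785, 2489, 2002 and 2449 in HZ. It read 1954, 1521, 2150, 1956 and 1933 in 4-week tibia PZ and 4113, 3723, 2485, 4004 and 3196 in HZ. Phalanx values were 2107, 2244, 2697, 2426 and 3475 in PZ and 4275, 4813, 5672, 5317 and 4964 in HZ. The phalanx HZ libraries were above all others, and the zones did not overlap in any bone or age. HZ exceeded PZ by 1.01 ± 0.15 (adjusted p = 9.2e-07), 0.87 ± 0.15 (adjusted p = 4.6e-05) and 0.97 ± 0.15 (adjusted p = 3.1e-06). Phalanx exceeded tibia by 1.09 ± 0.15 in PZ (adjusted p = 3e-06) and 1.04 ± 0.15 in HZ (adjusted p = 1.3e-06). The gene rose with age by 0.66 ± 0.15 in PZ (adjusted p = 0.0015) and by 0.51 ± 0.15 in HZ (adjusted p = 0.017), the latter 0.45 to 0.46 without 4-week replicate 1 or 4 (adjusted p = 0.053 to 0.061).

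The log2 ratio of Mef2d to Mef2a within a library, a description chosen in the same way, was 1.44 ± 0.37 (SD) in mouse 1-week tibia HZ, -0.08 ± 0.35 in 4-week tibia HZ and -0.09 ± 0.32 in phalanx HZ, and in rat 2.06 ± 0.22, 0.19 ± 0.66 and -0.28 ± 0.23. In both species every 1-week tibia HZ library was above every 4-week tibia HZ and phalanx HZ library. In PZ the means were 0.78, 0.24 and 0.09 in mouse and 0.79, 0.37 and -0.67 in rat.

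Mef2c, which in mouse chondrocytes drives hypertrophy, was analysed in mouse alone. It read 2429, 3714, 2622, 2752 and 4101 in 1-week tibia PZ and 9162, 5872, 8219, 4582 and 10850 in HZ. It read 7113, 4950, 6775, 5906 and 5468 in 4-week tibia PZ and 6571, 5143, 9035, 7291 and 7502 in HZ. Phalanx values were 2418, 2676, 2307 and 2507 in PZ and 5027, 3893, 4221, 4619 and 3953 in HZ. The zones did not overlap in 1-week tibia and phalanx, but did in 4-week tibia. HZ exceeded PZ by 1.27 ± 0.17 in 1-week tibia (adjusted p = 4.8e-07) and 0.81 ± 0.19 in phalanx (adjusted p = 0.00089), against 0.22 ± 0.17 in 4-week tibia (adjusted p = 0.34). The PZ level rose with age by 0.97 ± 0.17 without overlap (adjusted p = 0.00034), the HZ age difference was -0.08 ± 0.17 (adjusted p = 0.81), and the interaction was -1.05 ± 0.25 (adjusted p = 0.014, lost under quantile normalization). Phalanx HZ was below tibia HZ by a log2 difference of -0.77 ± 0.17 (adjusted p = 0.0018).

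Sik3, the kinase gene, was the flattest member. Its group means ran from 1816 to 2817 in mouse and from 3040 to 4589 in rat, a spread of 1.55 and 1.51 times, against 5.18 and 4.20 times for Hdac5 and 4.47 and 6.32 times for Mef2d. In mouse phalanx it read 2420, 2675, 3003 and 3068 in PZ and 1596, 1301, 1409, 2484 and 2981 in HZ. The zones overlapped through HZ replicates 4 and 5, and the difference was -0.59 ± 0.17 (adjusted p = 0.006), lost when only those 2 groups were fitted. In the other 5 zone comparisons the differences were between -0.24 and 0.18, none was called, and the 95% intervals together ran from -0.56 to 0.53. In tibia HZ it fell by 0.46 ± 0.16 with age in mouse (adjusted p = 0.042, lost in 14 of 19 alternatives) and by 0.62 ± 0.17 in rat (adjusted p = 0.014). The mouse value was -0.49 to -0.39 (adjusted p = 0.051 to 0.11) without 1-week replicate 1, 3 or 4 or 4-week replicate 1, 2, 3 or 5, and the rat value -0.53 to -0.47 (adjusted p = 0.056 to 0.072) without 1-week replicate 3 or 4-week replicate 1. Phalanx HZ differed from tibia HZ by -0.48 ± 0.17 in rat (adjusted p = 0.029) and by -0.43 ± 0.16 in mouse (adjusted p = 0.054). Without phalanx replicate 1, 3 or 5 or tibia replicate 2, 3 or 5 the rat value was -0.45 to -0.39 (adjusted p = 0.056 to 0.098). The mouse value was -0.60 (adjusted p = 0.0022) without phalanx HZ replicate 5, the library apart on zone markers, and the interaction was then -0.59 (adjusted p = 0.047).

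Neighbouring groups in the order of levels seldom separated. For Pth1r in mouse the order ran from 4-week tibia PZ through the tibia HZ groups and 1-week tibia PZ to phalanx HZ and PZ, and every pair of neighbours overlapped. In rat it ran from 1-week tibia HZ to phalanx PZ, and only phalanx HZ stood clear of the group below it, 1-week tibia PZ. Hdac5 in 1-week tibia HZ was 2.10 times the next group mean in mouse and 1.68 times in rat, in both cases phalanx HZ, which it overlapped. Leaving out the 3 libraries that stood apart on zone markers changed no call among the members, except that mouse Sik3 gained the 2 calls above.

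The wider pathway was read from lists of other genes of each step. Other ligands and receptors of the family were close to absent: Pth and Pth2r in mouse and Pth2 and Pth2r in rat summed to 0 to 11.9 normalized counts per library, and none passed the filter. Of 22 genes of the cyclic AMP relay tested in mouse and 18 in rat, 4 were higher and 6 lower in 1-week tibia HZ in mouse, and 4 higher and 3 lower in rat. These are 45.5% and 38.9% of the list, where 44.2% and 41.5% of all genes were called. Adcy4, an adenylyl cyclase, had the largest rise (3.93 ± 0.67, adjusted p = 1.3e-05 in mouse; 4.68 ± 1.06, adjusted p = 0.00070 in rat). Adcy3 (1.62), Adcy7 (2.20) and Gnal (2.60) were the other rat genes that rose, and Crtc3 (1.27), Prkaca (0.77) and Crtc2 (0.50) the other mouse genes. Gnas, which encodes the stimulatory G protein subunit, was lower in HZ in both species (-0.66 ± 0.11, adjusted p = 1.1e-05; -0.93 ± 0.35, adjusted p = 0.029), as was Pde4d, a cyclic AMP phosphodiesterase, in mouse (-1.53 ± 0.25). Prkar2b, a regulatory subunit of protein kinase A, and Atf1 were the other lower genes in rat (-1.15 and -0.47). The list medians of 0.15 and 0.29 stood beside -0.15 and 0.013 over all genes.

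Of 11 genes of the Gq branch and of desensitization in mouse and 10 in rat, 6 and 3 were called in 1-week tibia HZ, all of them higher. That is 54.5% and 30.0% of the list, against 44.2% and 41.5% of all genes. In both species these included the arrestin gene Arrb1 (2.50 ± 0.29, adjusted p = 1.8e-08; 2.52 ± 0.46, adjusted p = 4.4e-05), the receptor kinase gene Grk3 (1.15 ± 0.23 and 4.03 ± 0.77) and the phospholipase gene Plcb4 (1.01 ± 0.30 and 1.88 ± 0.20). The rat genes are these 3. The list medians were 0.83 in mouse and 0.10 in rat.

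Around the deacetylases, 11 of 23 kinase, phosphatase, 14-3-3 and corepressor genes were higher and 4 lower in mouse 1-week tibia HZ, and 10 of 20 higher and 1 lower in rat, with list medians of 0.30 and 0.45. In either direction 15 of 23 and 11 of 20 were called, where 44.2% and 41.5% of all genes were. Cab39, a scaffold that activates the kinase switching on Sik proteins, was higher by 1.81 ± 0.18 (adjusted p = 6.6e-10) and 1.42 ± 0.23 (adjusted p = 1.1e-05). Sik1, a relative of Sik3 that cyclic AMP induces in other cells, was higher in HZ in all 6 zone comparisons, by 2.22 ± 0.56 in mouse 1-week tibia (adjusted p = 0.0016) and 3.11 ± 0.47 in rat (adjusted p = 1.7e-06). In mouse, Prkd2, a kinase of class IIa deacetylases, Ywhaz, a 14-3-3 protein, and Hdac7, another class IIa deacetylase, rose by 2.90 ± 0.30, 1.36 ± 0.15 and 3.56 ± 0.47, and in rat Prkd3 rose by 0.76 ± 0.14. Camk4 was lower in both species (-0.91 ± 0.35 and -4.62 ± 0.78), and in mouse Hdac3 and Camk2d were lower too (-0.71 and -0.60). Between bones in HZ, 5 of these genes were lower and 3 higher in phalanx in each species, 34.8% of the list in mouse and 40.0% in rat, against 19.0% and 36.0% of all genes. Cab39 was lower in both (-1.61 ± 0.18, adjusted p = 6.1e-08; -0.82 ± 0.23, adjusted p = 0.0066), as were Stk11, which encodes the kinase that Cab39 activates (-1.05 and -0.74), and the 14-3-3 gene Ywhaq (-0.87 and -0.83). Ncor1 (-0.34) and Ywhah (-0.54) were the other lower mouse genes, and Prkd3 (-1.08) and Ywhae (-1.39) the other lower rat genes. Ywhab was higher in both species (0.46 and 0.32), with Hdac3 (0.76) and Camk2d (0.59) in mouse and Ppp2r1a (0.63) and Hdac9 (1.62) in rat.

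Genes placed downstream of the axis were read as well, and their link to it was not tested here. The hypertrophy list includes Col10a1 and Mmp13, which are also the HZ markers above. HZ is by definition the hypertrophic tissue, so its zone counts are a description. Of the partners of Mef2 and Runx and the genes of hypertrophy, 11 of 15 were higher and 2 lower in mouse 1-week tibia HZ, and 9 of 13 higher and 1 lower in rat, with list medians of 1.92 and 2.88 (44.2% and 41.5% of all genes were called). Alpl, the alkaline phosphatase of mineralizing cartilage, was higher by 3.96 ± 0.18 (adjusted p = 1e-16) and 4.16 ± 0.27 (adjusted p = 3.1e-13), mouse Col10a1, the collagen of hypertrophic cells, by 5.73 ± 0.52 (adjusted p = 4.7e-09), and rat Ihh, the hedgehog ligand, by 2.88 ± 0.28 (adjusted p = 1.1e-09). Runx3 was lower in both species (-2.91 ± 0.36 and -2.08 ± 0.26), and Sp7 was the other mouse gene that was lower (-0.45 ± 0.18). A list that joins genes restraining hypertrophy with genes that respond to PTHrP or hedgehog signalling went the other way. Its zone counts are likewise a description, since the zones were cut apart by hypertrophy. All 10 were lower in HZ in mouse 1-week tibia, 9 of 10 in 4-week tibia and in phalanx, and 7, 6 and 7 of 9 in rat, with medians between -1.78 and -0.94. Of all genes 44.2, 35.3 and 35.0% were called in these mouse comparisons and 41.5, 21.3 and 40.6% in rat. In 1-week tibia these included Gli1 (-3.27 ± 0.30, adjusted p = 3.5e-10; -4.42 ± 0.57, adjusted p = 5.9e-07), Ptch1 (-2.17 ± 0.19 and -1.65 ± 0.16) and Sox5 (-3.16 ± 0.48 and -2.29 ± 0.20). The genes that went against the rest were Bcl2, higher in HZ in mouse 4-week tibia (1.21 ± 0.19) and rat 1-week tibia (0.81 ± 0.24), and Ccnd1, higher in rat 4-week tibia (1.04 ± 0.37).

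In tibia PZ with age, 6 of 15 hypertrophy genes were called in mouse (40.0% of the list, against 8.57% of all genes) and 3 of 13 in rat (23.1%, against 16.1%). In mouse 5 of them were higher at 4 weeks: Alpl (3.90 ± 0.18, adjusted p = 9.4e-16), Col10a1 (3.89 ± 0.52), Ibsp (1.78 ± 0.52), Foxa2 (1.74 ± 0.37) and Cbfb (0.79 ± 0.18). Vegfa was lower (-1.23 ± 0.22). The 3 rat genes were higher: Alpl (3.07 ± 0.27, adjusted p = 1.9e-09), Spp1 (1.93 ± 0.65) and Foxa2 (1.54 ± 0.34). This list shares Col10a1 and Mmp13 with the HZ markers, whose sum was higher in mouse 4-week tibia PZ than at 1 week. The counts are therefore a description, and the part of hypertrophic tissue within the PZ captures was not tested.

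In phalanx HZ against tibia HZ, where Pth1r, Hdac5 and Mef2d were lower, hypertrophy genes split, with 7 of 15 called in mouse and 8 of 13 in rat (19.0% and 36.0% of all genes). Ihh was lower (-2.37 ± 0.34, adjusted p = 1.2e-05 in mouse; -1.25 ± 0.28, adjusted p = 0.00073 in rat), and so was Foxa3, a forkhead factor of hypertrophic chondrocytes in mouse (-3.17 ± 0.55 and -1.44 ± 0.44). The other lower genes were Vegfa (-1.56), Alpl (-1.02) and Col10a1 (-1.73) in mouse, 5 of 15 in all, and Runx2 (-0.57) in rat, 3 of 13 in all. Spp1, which encodes osteopontin, and the matrix protease gene Mmp14 were higher in both species (Spp1 1.93 ± 0.54 and 3.74 ± 0.65; Mmp14 0.85 ± 0.25 and 1.44 ± 0.36), the only 2 in mouse, with Cbfb (1.53), Runx3 (1.11) and Mmp13 (2.49) besides in rat. In the list of restraining and responding genes, Gli1 and Ptch1, which report hedgehog signalling, were higher there in both species (Gli1 1.47 ± 0.30 and 3.04 ± 0.57; Ptch1 1.32 ± 0.19 and 1.33 ± 0.16), and Sox9 was lower (-1.57 ± 0.42 and -0.99 ± 0.25). Sox9 is also among the chondrocyte markers above, all of which were lower in phalanx HZ. Ccnd1 was the other higher gene in mouse (1.03) and Gli3 (1.87) and Zfp521 (0.54) those in rat. Zfp521 was lower in mouse (-0.45), and Bcl2 was lower in rat (-1.16).

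Across the 12 group means of both species, the genes closest to each member were sought among 10363 genes tested in both, as the root mean square of the difference in log2 after centring on each species' mean. For Pth1r these were Slc38a4 (0.228) and Klf2 (0.328). Hdac4 was closest to Cbx6 (0.306), Crtc1 (0.307) and Gcfc2 (0.31), and Mef2a to Carhsp1 (0.169), Rab11a (0.17) and Itpkb (0.199). Hdac5 was closest to Zfand2a (0.254), Piezo1 (0.26) and Ulk1 (0.262), and Mef2d to Ptpn21 (0.254), Zfand2a (0.281) and Cab39 (0.301), so the 2 shared Zfand2a. Pthlh had no close match, with Chrd first (0.958), then Rbpjl (0.977) and Itgbl1 (0.984). Sik3 varied too little over the groups for this search, with SDs of its group means of 0.28 and 0.24 where 0.5 was asked. The measure describes likeness of pattern only, and the 12 means share 1 normalization per species.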

How the data were processed

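Proliferative and hypertrophic zones were microdissected by laser from mouse and rat growth plates, and RNA was amplified (Ovation RNA-Seq V2) and sequenced in 50 base pairs, paired-end. Per the labels and the study's methods, the authors used STAR (2.4.2) for alignment to the mm10 or rn6 build, featureCounts (1.4.6, Subread) for gene counts and the relative log expression scaling of DESeq2. The deposited values are log2 of those normalized counts plus 1, each species in its own file. All values below 200 normalized counts were whole multiples of a library's step (tolerance 0.05), which gave read counts and depth. These are bulk libraries, of which 59 of 60 had a column. The replicate 3 of mouse 1-week phalanx PZ was not analysed here.

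Rows without a gene name or with a date in its place (26 mouse, 27 rat) and 216 second rows of a rat symbol were left out. Genes were kept when 5 or more libraries of a species reached 10 normalized counts, and were tested with limma (3.58.1, R 4.3.3; trend and robust, statmod 1.5.0; data.table in version 1.17.8) on the deposited log2 scale, all 6 groups of a species in 1 fit. Comparisons were HZ minus PZ, 4-week minus 1-week tibia, phalanx minus tibia at 1 week, and the differences of the last 2 between zones. P-values were adjusted by the Benjamini-Hochberg method over all genes tested per comparison. Ratios within libraries, chosen after the levels were seen, are described without a test. Python 3.11.15, pandas 2.3.3, NumPy 2.4.6, SciPy 1.17.1 and matplotlib 3.10.9 were used, and the fit was tested on simulated data.

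The members, the lists and the markers were chosen with earlier results of these data known. The text names all members, of each pathway list the 2 to 4 genes with the smallest adjusted p in a comparison described (with the other species' value where it is called) and every gene of a count of 5 or fewer, and for each member with an SD of group means of at least 0.5 the 3 genes nearest in pattern. Genes that this rule names but the text leaves out are not reported here. Alternatives were a pseudocount of 4, no filter or a minimum of 50, quantile and upper quartile scaling, array weights, limma-voom on values returned to counts, only the groups compared, with and without the replicate block, and leaving out each library. Leaving out the 3 libraries apart on zone markers was added after seeing the data. Libraries of a group came from separate animals, and p-values measure the spread between these libraries, which includes capture and amplification. Whether PZ and HZ with the same number came from 1 animal is not given in the sources used here. Total reads per library set the precision of scarce transcripts, above all of Pthlh.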

Additional observations from a re-analysis of the deposited data

Results flagged for a closer look

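Of 86 groups of 4 or 5 libraries examined, 5 held a library far from the others, where chance gives about 1 in 20. For Pthlh these were the highest library of mouse 1-week tibia PZ, at 19.5 normalized counts with the other 4 at 0, and the highest of mouse 4-week tibia HZ, at 1.7 with the other 4 at 0. The rate of 1 in 20 is for values without ties, so it does not apply to these Pthlh groups. Mef2a had a low library in mouse 1-week tibia HZ, at 2354.6 against 2848.4 to 3057.2. Hdac5 had a high library in rat 4-week tibia HZ, at 632.2 against 378.3 to 435.2. Sik3 had a high library in rat 1-week tibia PZ, at 5594.3 against 3483.9 to 3842.3.

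The change with age or the difference between bones was called different between the zones in 13 cases, by the interaction term of limma (log2, HZ minus PZ, Benjamini-Hochberg adjusted p). For age these were Pth1r at -1.62 (adjusted p = 0.0047), Hdac5 at -1.444 (0.0062), Mef2c at -1.049 (0.014) and Mef2d at -1.505 (7.9e-05) in mouse. In rat they were Pth1r at -1.644 (0.00024) and Mef2d at -1.6 (0.0026).

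For bone the mouse cases were Pth1r at -1.177 (0.022), Hdac4 at -1.656 (0.0019), Hdac5 at -1.979 (7.8e-05), Mef2a at -0.632 (0.033) and Mef2d at -1.475 (3.7e-05). The rat case was Pth1r at -0.83 (0.033). The last case, mouse Pthlh at -5.187 (0.0024), shows no difference between zones of its own: every 1-week HZ library of both bones was at 0, so the value is the PZ bone difference with its sign turned. It is no bound on a fold.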

How the results depend on the processing

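Of 135 comparisons of single members, 74 were called and 58 of these held in every alternative, and no called difference changed sign under any. The number of members called moved by over 1.5 times in 4 comparisons. In mouse tibia HZ with age it was 4, and 2 without a filter, under quantile or upper quartile scaling, array weights or limma-voom, with only the groups compared, and with these and the replicate block (2 to 4 leaving out a library); Hdac4 and Sik3 were the calls lost. In rat tibia HZ with age it was 5, and 3 with only the groups compared (3 to 6 leaving out a library). In rat PZ, phalanx against tibia, it was 2, and 1 under upper quartile scaling (1 to 2 leaving out a library). For the rat bone difference between zones it was 1, 2 with a pseudocount of 4, a minimum of 50, array weights, only the groups compared or these with the replicate block, and 0 under quantile or upper quartile scaling (0 to 2 leaving out a library). The causes were not tested.

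Same-numbered libraries were not paired by the labels, their deviations correlated from -0.127 to 0.286, and no comparison had every pair above 0.1. Quantile scaling moved the median of all genes by -0.146, -0.144 and -0.196 in the rat zone comparisons, -0.133 in mouse tibia HZ with age and -0.128 in rat HZ between bones, and upper quartile scaling by -0.133 and -0.101 in mouse and rat 1-week tibia between zones. Depth limits Pthlh, with at most 287 reads in a group.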
